A study of Mus musculus with 15 samples.

Results

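The genes of laminin-332 and of the hemidesmosome that holds epithelial cells to it were examined in mouse 105K tumors, which grow from Tsc2-deficient (Tsc2-/-) renal tumor cells. The set held 8 of the 24891 genes measured. It was made up of Lama3 and Lamb3 (2 laminin chains), Itga6 and Itgb4 (both chains of the laminin receptor), Col17a1, Cd151, Dst and Plec, chosen by name for their role in this structure and written below in capitals as in the expression table. The choice was made with earlier results of these data known. Shares and ranks of the members beside all genes therefore describe the set and are not independent support. The 105K cells were transduced with a control shRNA (sh-NC) or with 1 of 2 shRNAs against B7-H3, labelled sh-B7-H3 (1) and, for the other, sh-B7-H3 (2), as puromycin-selected pools rather than single clones. They were mixed with growth factor reduced matrigel, itself rich in laminin protein, and injected under the skin of the flanks of wild-type male C57BL/6J mice aged 6 weeks. RNA was taken from whole tumors (bulk) for sh-NC and sh-B7-H3 (1). For sh-NC and both B7-H3 shRNAs it was also taken from sorted cells, the unlabelled cells left after magnetic removal of non-tumor cells. Each of the 5 groups had 3 libraries. The host's own stroma and immune cells have intact Tsc2 and carry no shRNA, so in bulk tumors only the tumor cells are of the 105K line.

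Laminin-332 is a cross-shaped protein of the basement membrane in which the α3 chain of LAMA3 and the β3 chain of LAMB3 are joined. It is the main ligand of integrin α6β4, which differs from other integrins in linking, through the long cytoplasmic tail of its β4 chain, to keratin filaments instead of actin. Plectin and the epithelial form of dystonin make that link inside the cell, collagen XVII spans the membrane beside the integrin, and the tetraspanin CD151 binds laminin-receptor integrins and organizes them in the membrane. Complete hemidesmosomes are found in epidermis and other stratified or glandular epithelia. In the kidney, laminins with other α chains make up most of the tubular basement membrane.

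Values are FPKM, read fragments per length of transcript and per depth of the library, divided by 1 factor per library (0.650 to 1.18) so that the median gene is level across libraries. They are called scaled FPKM below. Because they are per length they can be set roughly side by side between genes, subject to the transcript lengths used, which are not given. A log2 fold change is a difference in mean log2(scaled FPKM + 1), which understates the change of genes near or below 1 FPKM. Changes were tested with limma across all genes that passed the low-value filter and counted at a Benjamini-Hochberg adjusted p below 0.05. The paper describes the 3 samples per group as biological, but the labels do not say which libraries came from which animal. The p-values therefore measure the spread between these libraries, which may in part be technical. Read totals were not given, and relative depth worked out from the smallest FPKM steps ranged from 0.468 to 1 of the deepest library. A single entry, MIR6236, took 51.6% to 79.7% of the summed FPKM in 3 libraries (bulk sh-NC replicate 3, bulk sh-B7-H3 (1) replicate 2 and sorted sh-NC replicate 2) and 6.01% to 41.6% in the other 12. Markers of tumor and tubule epithelium (7 of 7 genes, PAX8, CDH16 and KRT8 among them) were detected in all 15 libraries. In sorted sh-B7-H3 (2) replicate 1 the summed leukocyte markers reached 474.9 scaled FPKM and the endothelial ones 22.8, against at most 10.1 and 0.465 in the other sorted libraries.

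B7-H3 is encoded by CD276, and its RNA went in part against the labels. CD276 stood at 34.0, 20.0 and 17.3 scaled FPKM in sorted sh-NC cells, at 7.29, 14.0 and 11.5 in cells labelled sh-B7-H3 (1), and at 23.3, 25.4 and 25.7 in cells labelled sh-B7-H3 (2). In bulk tumors it was 20.8, 23.2 and 23.5 for sh-NC and 22.3, 17.8 and 24.4 for sh-B7-H3 (1). None of the 3 differences from sh-NC passed the test (log2 fold change -1.04, adjusted p = 0.0547 for sorted sh-B7-H3 (1); 0.12, adjusted p = 0.775 for sorted sh-B7-H3 (2); -0.07, adjusted p = 0.709 in bulk, limma). The groups are therefore named below by their labels. In no group labelled sh-B7-H3 was CD276 RNA lower than in sh-NC by the test, which holds for every direction given below. All 3 libraries of sorted sh-B7-H3 (1) lay below every sorted sh-NC library. For cells labelled sh-B7-H3 (2), and for bulk tumors labelled sh-B7-H3 (1), the values overlapped those of sh-NC.

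The 8 genes lie on separate chromosomes but for LAMB3 and DST (GRCm38, GENCODE M21 annotation, whole gene bodies with exons, introns and UTRs). LAMA3 is on the plus strand of chromosome 18 from 12333819 to 12583013, and LAMB3 on the plus strand of chromosome 1 from 193207699 to 193343878. ITGA6 is on chromosome 2 from 71745616 to 71858416 and ITGB4 on chromosome 11 from 115974709 to 116008412, both on the plus strand. COL17A1 is on the minus strand of chromosome 19 from 47646344 to 47692094, and CD151, the shortest gene of the set, on the plus strand of chromosome 7 from 141467392 to 141471473. DST, with 14 protein-coding transcripts, covers chromosome 1 from 33908225 to 34308661 on the plus strand, and PLEC, with 21, covers chromosome 15 from 76170974 to 76232574 on the minus strand. The table gives 1 value per gene, so the epithelial form of dystonin and the forms of plectin could not be separated from their other isoforms. LAMB3 overlaps Hsd11b1 and G0s2 on the opposite strand, and PLEC overlaps Parp10 on the same strand. Whether reads were counted by strand is not given in the sources used here. HSD11B1 stood at 14.3 to 25.2 scaled FPKM in sorted cells labelled sh-B7-H3 (2) and at most at 5.08 in the other libraries, and its part in the LAMB3 values of those cells was not tested.

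In sorted cells with the libraries of both B7-H3 shRNAs taken as 1 group, both laminin chains of the set and both chains of their receptor were increased. CD151 and the 2 keratin linkers did not pass the test. Under sh-B7-H3 (1) alone the laminin chains passed, but ITGA6 (adjusted p = 0.0655) and ITGB4 (adjusted p = 0.0578, limma) did not. Both receptor chains passed in cells labelled sh-B7-H3 (2), where CD276 RNA was not lower. With both shRNAs set against sh-NC, 4 of the 7 members that passed the filter rose (LAMA3, LAMB3, ITGA6 and ITGB4) and none fell. Among all 11424 genes tested, 12.6% rose and 7.92% fell. The median log2 fold change was 0.69 over the 7 members and 0.0070 over all genes. The fold was larger for the ligand chains than for the receptor chains, from 12.0 for LAMB3 and 9.54 for LAMA3 to 2.64 for ITGB4 and 1.65 for ITGA6, and CD151, DST and PLEC stood at 0.709, 0.710 and 0.883, all as ratios of mean scaled FPKM. By log2 fold change LAMB3 ranked 36 and LAMA3 51 of the 11424 genes.

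**Figure D1:**
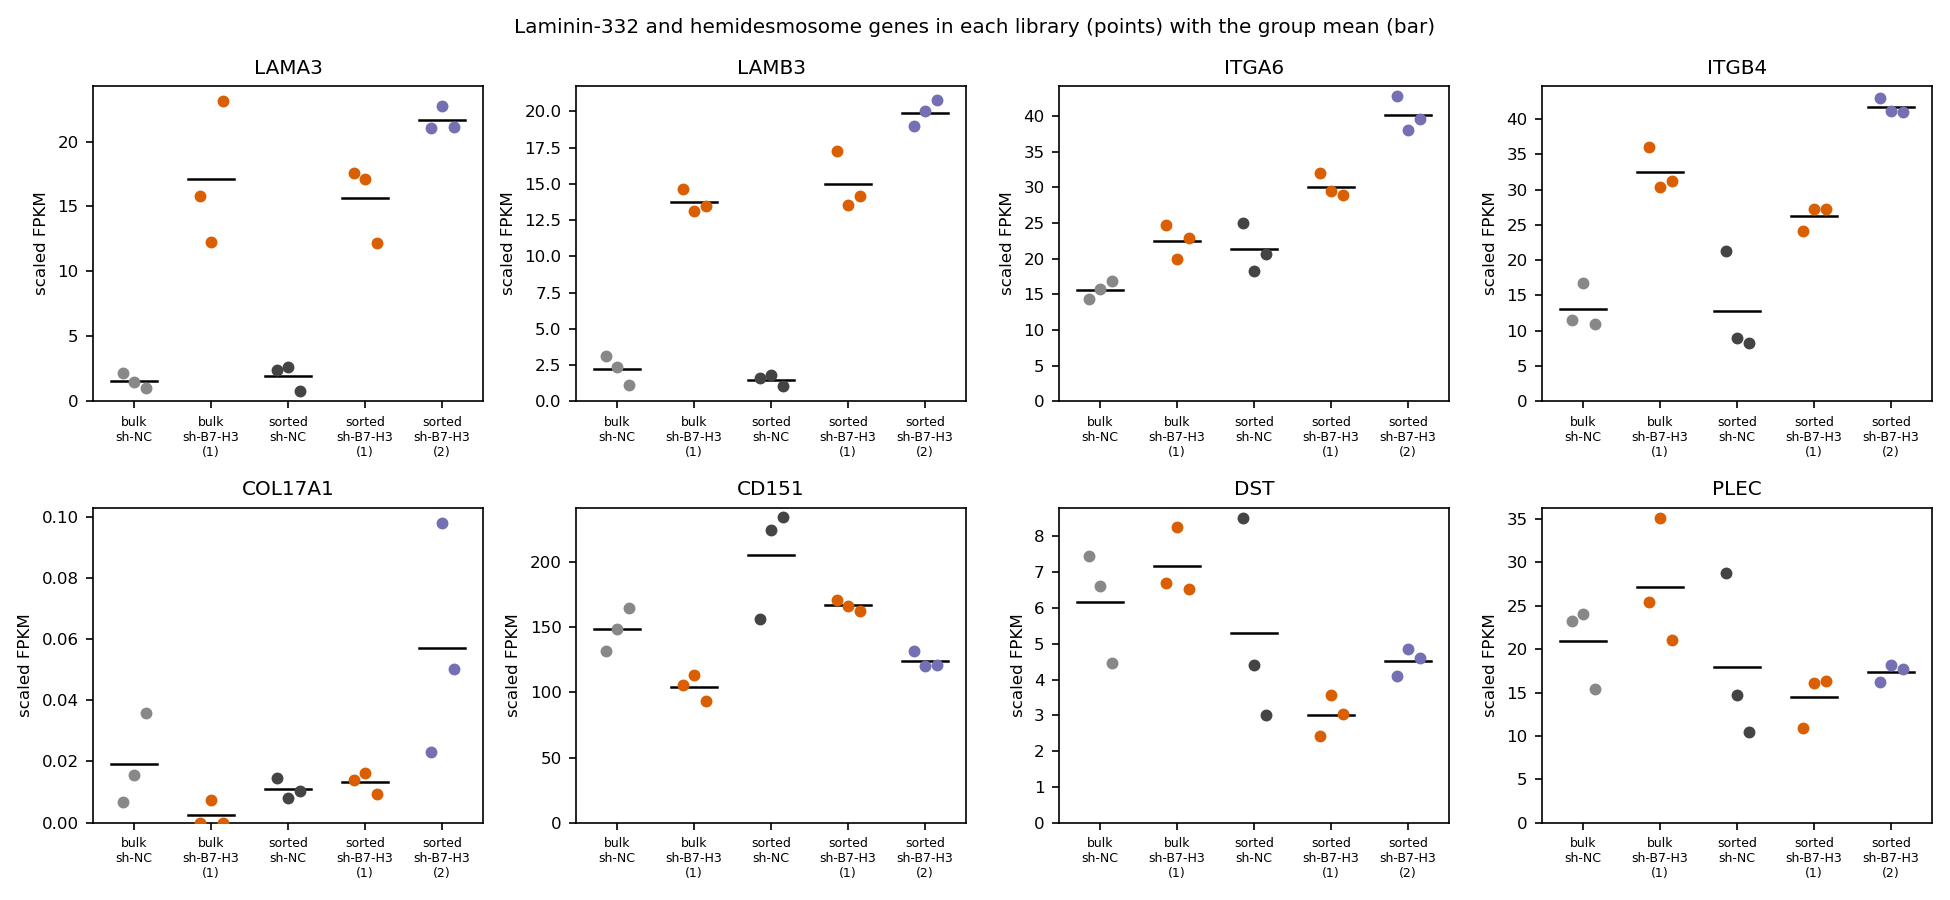
Scaled FPKM (linear axis from 0) of the 8 members in each of the 15 libraries, by group; each point is 1 library and the horizontal bar is the group mean. LAMA3 and LAMB3 lie at 3.14 or below in every sh-NC library and at 12.2 or above in every library labelled sh-B7-H3, while DST and PLEC overlap between groups.

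LAMA3 encodes the α3 chain, which carries the integrin-binding end of laminin-332. In sorted cells it was measured at 2.40, 2.63 and 0.825 scaled FPKM under sh-NC, at 17.6, 17.1 and 12.2 under sh-B7-H3 (1), and at 21.0, 22.8 and 21.1 in cells labelled sh-B7-H3 (2). The lowest of the 6 libraries labelled sh-B7-H3 lay far above the highest control, and the groups did not overlap. The group means were 1.95 ± 0.983 (SD, n = 3) for sh-NC and 18.6 ± 3.85 (SD, n = 6) for the 6 labelled sh-B7-H3, with a log2 fold change of 2.77 (SE 0.24, limma adjusted p = 1.85e-05). Bulk tumors gave 2.16, 1.50 and 0.996 for sh-NC and 15.8, 12.3 and 23.2 for tumors labelled sh-B7-H3 (1), levels that overlapped those of the sorted cells of the same label. In bulk samples, a change in the number of cells of a type cannot be told apart from a change in the RNA per cell. Ordered by mean, the groups ran from sorted sh-B7-H3 (2) through bulk sh-B7-H3 (1) and sorted sh-B7-H3 (1) to sorted sh-NC and bulk sh-NC, and the only neighbours whose libraries did not overlap were sorted sh-B7-H3 (1) and sorted sh-NC.

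LAMB3 encodes the β3 chain, which is found in laminin-332 and few other laminins, and it followed LAMA3 closely. Sorted sh-NC cells gave 1.58, 1.78 and 1.02 scaled FPKM, cells labelled sh-B7-H3 (1) gave 17.2, 13.6 and 14.2, and cells labelled sh-B7-H3 (2) gave 19.0, 20.0 and 20.8. Again no library labelled sh-B7-H3 came near a control, and the spread within each shRNA was small. The means were 1.46 ± 0.392 (SD, n = 3) and 17.5 ± 3.03 (SD, n = 6), with a log2 fold change of 2.90 (SE 0.16, limma adjusted p = 1.15e-06). In bulk tumors LAMB3 stood at 3.14, 2.34 and 1.13 for sh-NC and at 14.7, 13.1 and 13.4 for sh-B7-H3 (1). In the order of group means, sorted sh-B7-H3 (2) lay above sorted sh-B7-H3 (1) without overlap, sorted and bulk sh-B7-H3 (1) overlapped, and so did bulk and sorted sh-NC at the low end. Over the 15 libraries, which share the group structure, LAMA3 and LAMB3 had a Pearson r of 0.978 on the log2 scale, the highest of any pair of members.

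The RNA balance of the 2 laminin chains was taken as their ratio within each library, whose absolute level depends on the transcript lengths used. The ratio of LAMA3 to LAMB3 was near 1 in sorted cells, at 1.27 ± 0.400 (SD, n = 3) for sh-NC and 1.07 ± 0.136 (SD, n = 6) for the libraries labelled sh-B7-H3, which overlapped (two-sided exact permutation p = 0.405). In bulk it had a mean of 0.737 for sh-NC and 1.25 for sh-B7-H3 (1), without overlap (two-sided exact permutation p = 0.1, the smallest that 3 libraries against 3 can give).

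**Figure D2:**
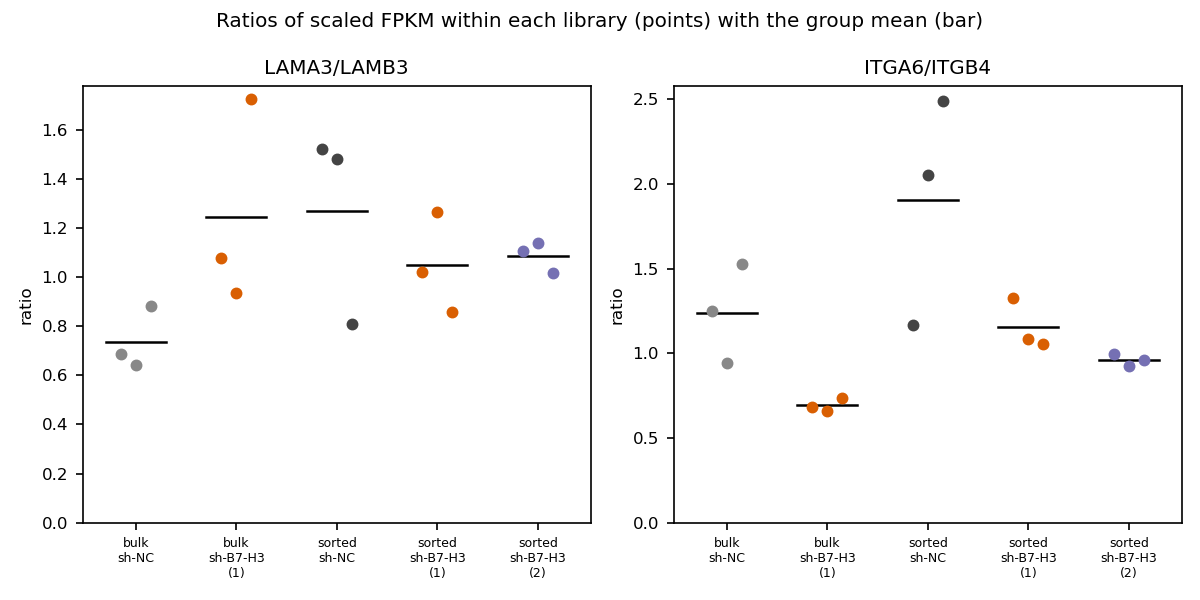
Ratios of scaled FPKM (linear axis from 0) of LAMA3 to LAMB3 and of ITGA6 to ITGB4 by group; each point is 1 library and the bar the group mean. The ratio of ITGA6 to ITGB4 runs from 1.17 to 2.49 in sorted sh-NC cells and has a mean of 0.693 in bulk sh-B7-H3 (1) tumors.

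ITGB4, the chain of the receptor that reaches the keratin linkers, was higher in the libraries labelled sh-B7-H3 and varied most among the controls. Its values in sorted sh-NC cells were 21.4, 8.91 and 8.29 scaled FPKM, against 24.1, 27.2 and 27.3 for sh-B7-H3 (1) and 43.0, 41.1 and 41.1 for cells labelled sh-B7-H3 (2). All 6 libraries labelled sh-B7-H3 lay above all 3 controls, although sh-NC replicate 1 came close to the sh-B7-H3 (1) cells. The means were 12.9 ± 7.37 (SD, n = 3) and 34.0 (n = 6), with a log2 fold change of 1.42 (SE 0.29, limma adjusted p = 0.00587). Bulk tumors gave 11.5, 16.7 and 11.0 for sh-NC and 36.0, 30.4 and 31.2 for sh-B7-H3 (1). Between groups ordered by mean, only bulk and sorted sh-NC overlapped.

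ITGA6, the α6 chain, pairs with β4 in hemidesmosomes and with β1 elsewhere, and its increase was smaller. Sorted sh-NC cells gave 25.0, 18.3 and 20.6 scaled FPKM, cells labelled sh-B7-H3 (1) gave 32.0, 29.5 and 28.9, and cells labelled sh-B7-H3 (2) gave 42.8, 38.0 and 39.6. The 3 sorted groups did not overlap, with means of 21.3 ± 3.38, 30.1 ± 1.65 and 40.1 ± 2.45 (SD, n = 3 each). The log2 fold change of both shRNAs together was 0.69 (SE 0.15, limma adjusted p = 0.00836), and without sorted sh-NC replicate 2 it was 0.59 and missed the threshold (adjusted p = 0.0549). In bulk tumors ITGA6 stood at 14.4, 15.8 and 16.8 for sh-NC and at 24.7, 20.0 and 22.9 for sh-B7-H3 (1), the latter overlapping sorted sh-NC. Since ITGB4 rose more than ITGA6, the ratio of ITGA6 to ITGB4 was 1.17, 2.05 and 2.49 in sorted sh-NC cells and 1.06 ± 0.144 (SD, n = 6) under the sh-B7-H3 labels. The log2 ratio differed by -0.79, with overlap between the groups (two-sided exact permutation p = 0.0476). In bulk the ratio was 1.24 ± 0.291 for sh-NC and 0.693 ± 0.0394 for sh-B7-H3 (1) (SD, n = 3 each), without overlap (exact permutation p = 0.1).

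COL17A1, collagen XVII, the transmembrane collagen of the complete hemidesmosome, was close to absent. Its highest value in any library was 0.0981 scaled FPKM. Its FPKM was multiplied by relative depth and counted in steps of its own smallest value above 0 in any library. It fell within 0.1 of a whole number of steps in 14 of 15 libraries, with 0 to 4 steps in 13 of them. The library with the smallest value and those at 0 are whole by construction. Only sorted sh-B7-H3 (2) replicates 2 and 3 were higher, at 12.7 and 8 steps. If a step is 1 read, as it is where whole reads are counted, these are a handful of reads per library. The gene was below the filter in all comparisons and was not tested by limma. No statement on a difference between groups is made from values this low.

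CD151, the tetraspanin that binds laminin-receptor integrins, was the member with the highest level. It stood at 156, 224 and 235 scaled FPKM in sorted sh-NC cells, at 171, 166 and 163 in cells labelled sh-B7-H3 (1) and at 131, 120 and 121 in cells labelled sh-B7-H3 (2). Only the last group lay below every control, and sh-NC replicate 1 was lower than the sh-B7-H3 (1) cells. With both shRNAs together the log2 fold change was -0.49 and did not pass the test (SE 0.17, limma adjusted p = 0.0756). Without sorted sh-NC replicate 1 it was -0.67 and passed (adjusted p = 0.0185). Bulk tumors gave 131, 149 and 165 for sh-NC and 105, 114 and 93.5 for sh-B7-H3 (1), which did not overlap. Ordered by mean, sorted sh-NC overlapped sorted sh-B7-H3 (1), which overlapped bulk sh-NC. Sorted sh-B7-H3 (2) came next without overlap, though its highest library (131.36) lay just under the lowest of bulk sh-NC (131.44). Bulk sh-B7-H3 (1) was lowest, again without overlap.

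The keratin linkers DST (dystonin) and PLEC (plectin) did not follow the receptor. DST was measured at 8.50, 4.40 and 3.02 scaled FPKM in sorted sh-NC cells, at 2.43, 3.57 and 3.03 in cells labelled sh-B7-H3 (1) and at 4.10, 4.85 and 4.61 in cells labelled sh-B7-H3 (2). PLEC stood at 28.8, 14.7 and 10.5, at 10.9, 16.1 and 16.3, and at 16.2, 18.2 and 17.7 in the same groups. For both genes sh-NC replicate 1 was the highest of the 9 sorted libraries and the groups overlapped. The log2 fold changes were -0.33 for DST (SE 0.25, adjusted p = 0.408) and -0.07 for PLEC (SE 0.26, adjusted p = 0.887, limma), and without sorted sh-NC replicate 1 they were 0.0087 and 0.31. The same library also held the highest ITGB4 and ITGA6 of the sorted sh-NC cells and the lowest CD151. DST and PLEC moved together over the 15 libraries (Pearson r = 0.931, with the group structure shared).

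Several markers of epidermal keratinocytes moved with the laminin chains and others stayed near 0. The summed level of 9 keratinocyte markers present in the table was 4.32 to 6.16 scaled FPKM in sorted sh-NC cells, 26.9 to 34.3 in cells labelled sh-B7-H3 (1) and 29.6 to 44.0 in cells labelled sh-B7-H3 (2). In bulk tumors it was 3.50 to 8.44 for sh-NC and 21.1 to 30.6 for sh-B7-H3 (1). Between sorted sh-NC cells and the sorted cells labelled sh-B7-H3, KRT14 went from 2.15–3.39 to 8.12–22.3, and IVL, involucrin of the cornified envelope, from 0.558–1.51 to 12.1–19.8 under sh-B7-H3 (1) and to 4.95–10.0 under the label sh-B7-H3 (2). DSG3, a desmosomal cadherin, went from 0.355–0.781 to 7.93–9.50 under the label sh-B7-H3 (2), with sh-B7-H3 (1) between them, and KRT10 from 0.481–0.663 to 1.05–1.90. The other 5 markers stayed below 0.5 in every library. KRT5, the keratin that pairs with KRT14 in basal keratinocytes, did not exceed 0.427 in any library, TRP63, the basal-cell transcription factor, did not exceed 0.379, KRT1 did not exceed 0.0539, KRT15 did not exceed 0.228 and LOR did not exceed 0.283. The summed markers of tumor and tubule epithelium stood at 766 to 950 in sorted sh-NC cells and 1074 to 1330 in the sorted cells labelled sh-B7-H3. EPCAM (17.2 to 27.4 against 126 to 221), KRT8 (276 to 298 against 316 to 457) and KRT18 (152 to 173 against 258 to 376) were higher there without overlap. CDH1 (210 to 357 against 166 to 229), PAX8 (20.7 to 34.7 against 18.3 to 23.0), PAX2 (7.81 to 18.0 against 7.77 to 13.8) and CDH16 (70.1 to 83.5 against 83.2 to 121) overlapped, the first 3 with lower highest values under the B7-H3 labels. The 6 Schwann cell markers, mostly MBP, summed to 6.61 to 8.23 and 14.0 to 16.8. Fibroblast markers summed to 43.3 to 107 in sorted sh-NC cells, 59.2 to 103 under sh-B7-H3 (1) and 129 to 166 in cells labelled sh-B7-H3 (2). COL1A1, COL1A2, COL3A1 and PDGFRA were higher in that last group than in sorted sh-NC without overlap. DCN, LUM and DPT overlapped, DPT with a lower highest value there. The part of all these cell types in the laminin and integrin changes was not tested. The leukocyte-rich library, sorted sh-B7-H3 (2) replicate 1, lay beside its 2 replicates for all 4 genes that rose. Without it the same 4 members passed, with log2 fold changes of 2.73 for LAMA3, 2.88 for LAMB3, 0.63 for ITGA6 (adjusted p = 0.0147) and 1.35 for ITGB4 (adjusted p = 0.0123, limma).

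Each shRNA was also set against sh-NC by itself; both comparisons use the same 3 sorted sh-NC libraries. Under sh-B7-H3 (1), 2 of 7 members rose and none fell, where 9.03% of all 11163 genes tested rose and 4.38% fell. These were LAMA3 (log2 fold change 2.54, SE 0.28, adjusted p = 0.000574) and LAMB3 (2.71, SE 0.16, adjusted p = 7.08e-05). ITGA6 (0.49, adjusted p = 0.0655) and ITGB4 (1.09, adjusted p = 0.0578) missed the threshold. Without sorted sh-NC replicate 1, 5 members passed, with ITGA6 at 0.60 (adjusted p = 0.0130), ITGB4 at 1.50 (adjusted p = 0.000189) and CD151 at -0.46 (adjusted p = 0.0391). CD151 with all libraries was at -0.28, DST at -0.57 and PLEC at -0.20, none of which passed.

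In cells labelled sh-B7-H3 (2), 4 of 7 members rose and 1 fell, where 11.7% of all 11243 genes tested rose and 7.44% fell. LAMA3 rose by a log2 fold change of 3.0 (SE 0.25, adjusted p = 0.000188), LAMB3 by 3.10 (SE 0.15, adjusted p = 5.5e-05), ITGA6 by 0.89 (SE 0.14, adjusted p = 0.00398) and ITGB4 by 1.75 (SE 0.31, adjusted p = 0.00679). CD151 fell by 0.70 on the log2 scale (SE 0.18, adjusted p = 0.0338), from 205 ± 42.6 to 124 ± 6.27 scaled FPKM (SD, n = 3 each). That call was lost when any library other than sorted sh-NC replicate 1 was left out (adjusted p = 0.0765 to 0.145). DST (-0.10) and PLEC (0.07) did not pass. CD276 itself was not lower in these cells.

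Set directly against each other, the 2 shRNAs differed in 1 member without, and in 5 with, the replicate number as a block. The same-number libraries of these 2 groups deviated from their group means together (Pearson r 0.209 to 0.229 across genes in 3 of 3 pairs), though the labels do not say what a number marks. ITGB4 was lower in cells labelled sh-B7-H3 (1) than in cells labelled sh-B7-H3 (2), at 26.2 ± 1.84 against 41.7 ± 1.07 scaled FPKM (SD, n = 3 each), with a log2 difference of -0.65 (SE 0.09, limma adjusted p = 0.0135). Over all 11239 genes tested, 3.4% differed. The call was lost without 1 of 4 libraries, sorted sh-B7-H3 (1) replicates 2 and 3 and sorted sh-B7-H3 (2) replicates 2 and 3 (adjusted p = 0.0523 to 0.0808), and held without the leukocyte-rich library (-0.63, adjusted p = 0.0130). LAMA3 (-0.46, adjusted p = 0.120), LAMB3 (-0.39, adjusted p = 0.0945), ITGA6 (-0.40, adjusted p = 0.0586), DST (-0.47, adjusted p = 0.0931) and PLEC (-0.27, adjusted p = 0.345) were each lower under sh-B7-H3 (1) in the mean without passing, in the fit without the block. CD151 was higher in the mean under sh-B7-H3 (1) (0.42, adjusted p = 0.0514), and passed without the leukocyte-rich library (0.46, adjusted p = 0.0363). With the replicate block the differences had the same size, and ITGB4 (adjusted p = 0.0156), ITGA6 (adjusted p = 0.0196), DST (adjusted p = 0.0282), LAMA3 (adjusted p = 0.0496) and CD151 (adjusted p = 0.0193) passed, while LAMB3 (adjusted p = 0.0560) and PLEC (adjusted p = 0.122) did not. Over all genes the block raised the calls from 382 to 1864. CD276 differed too and was lower under sh-B7-H3 (1) (-1.16, adjusted p = 0.0277, and 0.0193 with the block).

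**Figure D3:**
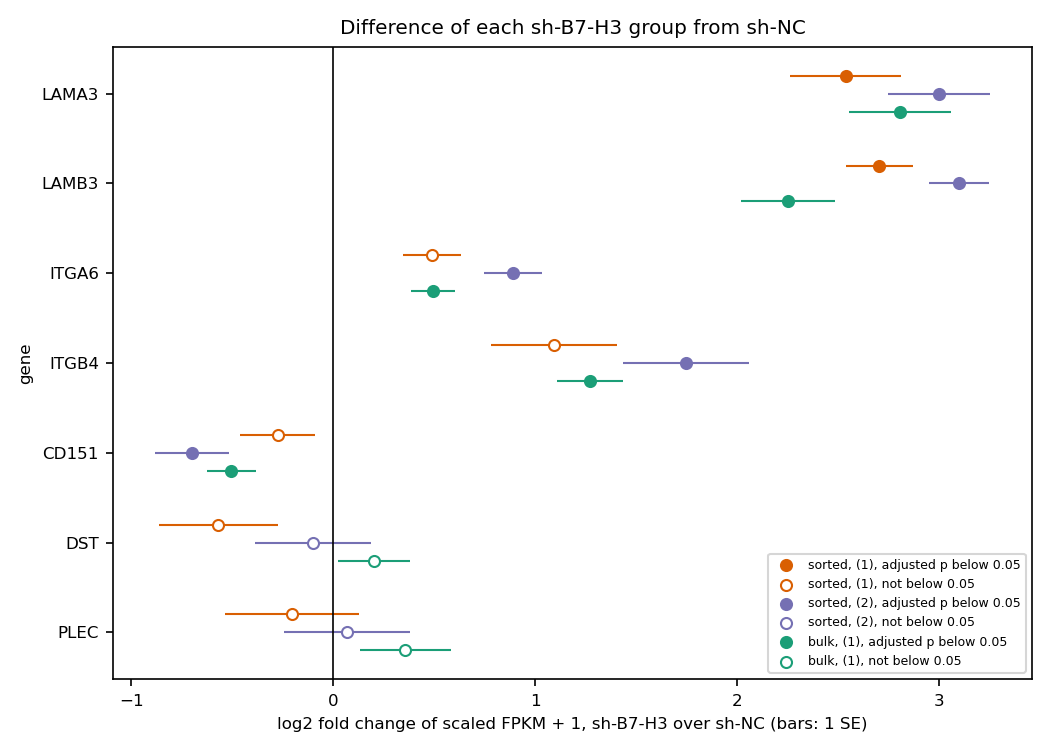
Log2 fold change of scaled FPKM + 1 for each tested member in sorted sh-B7-H3 (1), sorted sh-B7-H3 (2) and bulk sh-B7-H3 (1), each over the sh-NC libraries of the same material; bars are 1 SE and filled points have an adjusted p below 0.05. LAMA3 and LAMB3 are filled in all 3 comparisons, at 2.25 to 3.10, and DST and PLEC in none.

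In bulk tumors labelled sh-B7-H3 (1), LAMA3, LAMB3, ITGA6 and ITGB4 rose and CD151 fell against sh-NC, which is 4 members higher and 1 lower of 7 where 12.8% of all 11800 genes tested rose and 8.52% fell. LAMA3 rose from 1.55 ± 0.582 to 17.1 ± 5.55 scaled FPKM (SD, n = 3 each; log2 fold change 2.81, SE 0.25, adjusted p = 0.00226) and LAMB3 from 2.20 ± 1.01 to 13.7 ± 0.818 (2.25, SE 0.23, adjusted p = 0.00298). They ranked 20 and 54 of the 11800 genes by log2 fold change. ITGB4 rose from 13.1 ± 3.16 to 32.5 ± 3.04 (1.27, SE 0.16, adjusted p = 0.00473) and ITGA6 from 15.7 ± 1.23 to 22.5 ± 2.38 (0.50, SE 0.11, adjusted p = 0.0240). CD151 fell by 0.51 on the log2 scale, from 148 ± 16.8 to 104 ± 10.1 (SE 0.12, adjusted p = 0.0310). For each of these 5 members the 3 libraries of either group did not overlap. The laminin chains and ITGB4 passed whichever library was left out. The ITGA6 call was lost without any 1 library other than bulk sh-B7-H3 (1) replicate 2 (adjusted p = 0.0514 to 0.115). That of CD151 was lost without bulk sh-NC replicate 2 or 3 or bulk sh-B7-H3 (1) replicate 1 or 3 (adjusted p = 0.0703 to 0.120).

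DST stood at 7.45, 6.60 and 4.47 scaled FPKM in bulk sh-NC tumors and at 6.70, 8.26 and 6.52 in bulk tumors labelled sh-B7-H3 (1) (log2 fold change 0.20, adjusted p = 0.430). PLEC was at 23.3, 24.1 and 15.4 and at 25.4, 35.1 and 21.1 (0.36, adjusted p = 0.277, limma). Both groups overlapped for both genes. The highest value of each was in bulk sh-B7-H3 (1) replicate 2, the library with the most skeletal muscle RNA, whose 7 markers summed to 648 scaled FPKM there, against 31.8 and 179 in its 2 replicates and 2.50 to 18.9 in bulk sh-NC. Both genes are also expressed outside epithelia, in muscle and connective tissue. Fibroblast markers summed to 267 to 649 in bulk sh-B7-H3 (1) and 85.6 to 159 in bulk sh-NC tumors. COL1A1, COL1A2, COL3A1, LUM and PDGFRA were higher under the B7-H3 label without overlap. DCN (6.36 to 50.6 in sh-NC against 12.1 to 42.8) and DPT (3.71 to 27.2 against 1.52 to 19.6) overlapped, with lower highest values under that label. The part of muscle and fibroblast RNA in the DST and PLEC values was not tested. Without the 2 bulk libraries in which MIR6236 took over 50% of the FPKM, which left 2 libraries in each group, 5 members still passed in bulk, with LAMA3 at 2.84, LAMB3 at 2.02, ITGB4 at 1.21, ITGA6 at 0.63 and CD151 at -0.49.

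Bulk and sorted material of the same label were compared next. Sorted cells had been dissociated, labelled and passed through magnetic columns before RNA was taken. Effects of this handling cannot be told apart from those of the removal of other cells. In sh-NC, none of the 7 members differed by limma at an adjusted p below 0.05 and 1, ITGA6, at an unadjusted p below 0.05, where 16.9% of all 11418 genes differed. ITGA6 was at -0.41 (adjusted p = 0.0909) and CD151 at -0.45 (adjusted p = 0.152) in bulk relative to sorted, and LAMA3 at -0.17, LAMB3 at 0.34, ITGB4 at 0.12, DST at 0.26 and PLEC at 0.30. Without sorted sh-NC replicate 1, CD151 (-0.63, adjusted p = 0.0119) and PLEC (0.68, adjusted p = 0.0456) passed. In that fit the calls over all genes rose too, from 1924 of 11418 to 4436 of 11327 tested.

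Under sh-B7-H3 (1), where 38.2% of all 11677 genes differed between bulk and sorted, 4 of the 7 members did. DST was higher in bulk, at 7.16 ± 0.955 against 3.01 ± 0.567 scaled FPKM (SD, n = 3 each; log2 fold change 1.03, SE 0.14, adjusted p = 0.00257), as was PLEC, at 27.2 ± 7.17 against 14.4 ± 3.06 (0.86, SE 0.22, adjusted p = 0.0188). ITGA6 (-0.41, SE 0.11, adjusted p = 0.0267) and CD151 (-0.68, SE 0.11, adjusted p = 0.00480) were lower in bulk. LAMA3 (0.09), LAMB3 (-0.11) and ITGB4 (0.30, adjusted p = 0.0669) did not pass. The 95% intervals of the difference from limma's moderated fit were -0.45 to 0.63 for LAMA3 and -0.39 to 0.17 for LAMB3. Without bulk sh-B7-H3 (1) replicate 2, the muscle-rich library, DST (0.93, adjusted p = 0.00635) and PLEC (0.67, adjusted p = 0.0274) still passed and ITGA6 did not (-0.33, adjusted p = 0.0651). ITGA6 lost its call without any 1 library other than bulk sh-B7-H3 (1) replicate 3, and PLEC without bulk replicate 1 (adjusted p = 0.0549) or sorted replicate 1 (adjusted p = 0.0664).

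**Figure D4:**
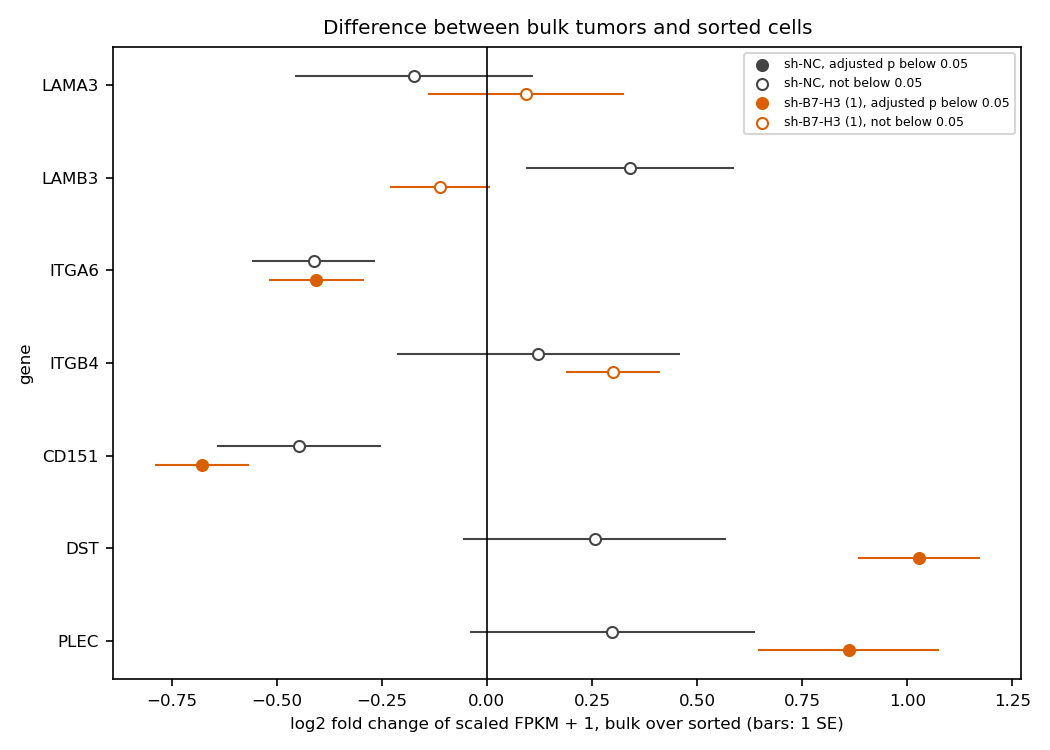
Log2 fold change of scaled FPKM + 1 between bulk tumors and sorted cells for each tested member, in sh-NC and in sh-B7-H3 (1); bars are 1 SE and filled points have an adjusted p below 0.05. DST and PLEC lie to the right, higher in bulk, at 1.03 and 0.86 under sh-B7-H3 (1), and CD151 and ITGA6 to the left.

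Whether the effect of sh-B7-H3 (1) differed between sorted cells and bulk tumors was tested as an interaction. None of the 7 members passed at an adjusted p below 0.05 by limma and none at an unadjusted p below 0.05, where 0.464% of all 12062 genes passed. The differences were largest for DST (-0.77, SE 0.38, adjusted p = 0.365), PLEC (-0.56, SE 0.45, adjusted p = 0.532) and LAMB3 (0.45, SE 0.30, adjusted p = 0.463). The 95% intervals from the moderated fit ran from -1.17 to 0.63 for LAMA3, -0.21 to 1.11 for LAMB3, -0.40 to 0.38 for ITGA6 and -1.04 to 0.69 for ITGB4.

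Other genes of the basement membrane and its receptors were counted from lists in the same fit, first in sorted cells with both shRNAs against sh-NC, where 12.6% of all genes tested rose and 7.92% fell; in bulk these shares were 12.8% and 8.52%. No list was tested as a list. Of 12 basement membrane genes tested, laminins left out, none rose by limma and 3 fell, and the median log2 fold change was -0.61. These were FBLN1, fibulin-1 (-1.45, adjusted p = 0.000248), SPARC, a collagen-binding matricellular protein (-1.35, adjusted p = 0.00410), and NID1, nidogen-1, which bridges laminin and collagen IV (-0.71, adjusted p = 0.0254). NID1 passed with neither shRNA alone (adjusted p = 0.101 for sh-B7-H3 (1) and 0.102 for sh-B7-H3 (2), limma). Its sorted sh-NC values were 15.4, 7.95 and 8.03 scaled FPKM. In bulk tumors 3 of 15 rose and 1 fell. NID1 was among those that rose (0.46, adjusted p = 0.0198), beside COL4A3 and COL7A1, and FBLN1 fell (-0.84, adjusted p = 0.00810).

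Of 9 other laminin receptors, 3 rose in sorted cells and none fell, with a median of 0.18. They were BCAM, the Lutheran glycoprotein that binds laminin α5 (1.04, adjusted p = 0.00167), ITGA2, the collagen- and laminin-binding α2 chain (1.02, adjusted p = 0.000532), and SDC1, syndecan-1 (0.77, adjusted p = 0.00153). The same 3 also rose in bulk (0.99, 1.48 and 0.44), together with ITGA1. Of 10 tetraspanins tested beside CD151, TSPAN1 (2.85, adjusted p = 8.59e-06) and TSPAN8 (1.67, adjusted p = 0.00262) rose and TSPAN3 fell (-0.52, adjusted p = 0.0168), with a median of 0.07. TSPAN3 passed with neither shRNA alone (adjusted p = 0.110 for sh-B7-H3 (1) and 0.0666 for sh-B7-H3 (2), limma). In bulk 2 of 11 rose, TSPAN1 (2.61, adjusted p = 0.00267) and TSPAN8 (adjusted p = 0.0208), and 2 fell, TSPAN3 (-0.49) and TSPAN4 (-1.09).

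Of 12 plakins and linkers to keratin or actin outside the set, 3 rose and 2 fell, with a median of -0.03. EVPL, envoplakin of the cornified envelope (1.61, adjusted p = 8.19e-05), and FERMT1, kindlin-1, which activates epithelial β1 integrins (2.69, adjusted p = 5.9e-05), were higher, while FERMT2, kindlin-2 (-1.04, adjusted p = 0.00349), and VCL, vinculin of actin-linked adhesions (-0.68, adjusted p = 0.0125), were lower. VCL did not pass in cells labelled sh-B7-H3 (2) alone (adjusted p = 0.0780, limma). The third that rose was PPL, periplakin, the partner of envoplakin (1.36, adjusted p = 4.64e-05), named here after its values were seen. FERMT1, EVPL, PPL and DSP rose in bulk and none of the 12 fell. A further list held proteases that process laminin-332 or collagen XVII, with their partners and TIMP inhibitors. Of the 11 tested, PLAU, urokinase, was the 1 that rose in sorted cells (1.48, adjusted p = 0.000387), and none fell, with a median of -0.03. In bulk 4 of 12 rose, PLAU (0.58, adjusted p = 0.0254), the inhibitor TIMP3 (0.66), BMP1 (0.51) and ADAM17 (0.46), and none fell.

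**Figure D5:**
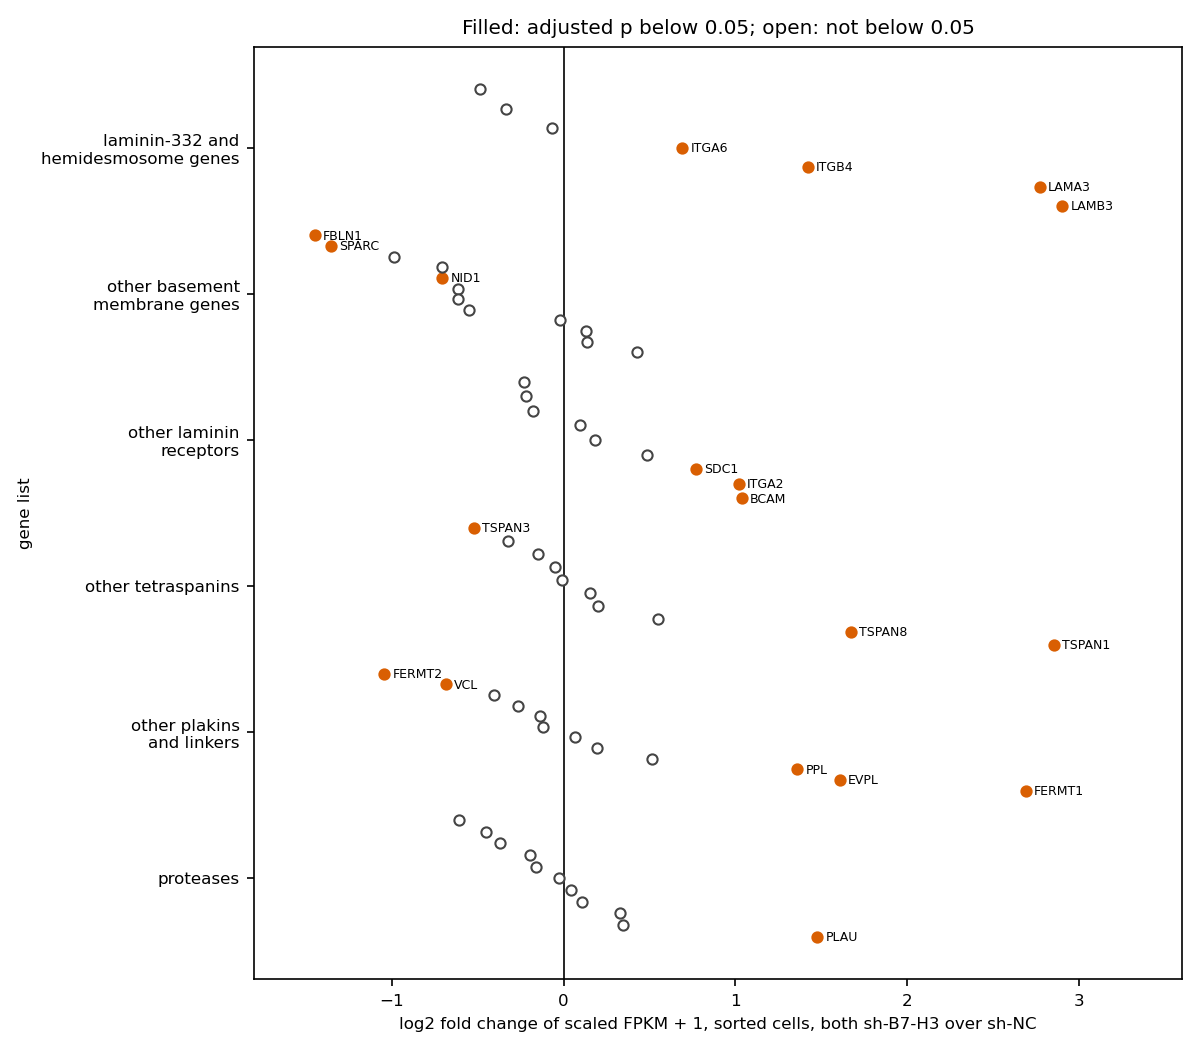
Log2 fold change of scaled FPKM + 1 in sorted cells, both B7-H3 shRNAs over sh-NC, for each tested member and for 5 lists of related genes; each point is 1 gene, filled where the adjusted p is below 0.05 and then named. LAMB3 (2.90), TSPAN1 (2.85), LAMA3 (2.77) and FERMT1 (2.69) lie farthest to the right and FBLN1 (-1.45) farthest to the left. The list marked proteases also holds their TIMP inhibitors.

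For each member above 1 scaled FPKM, the 3 other genes with the most similar level over the 15 libraries were listed from 12187 genes; libraries of a group share their label and material, so these values of Pearson r describe the pattern and carry no test. LAMA3 was most like GABRP (r = 0.993), MYO3B (0.989) and EPCAM (0.988), the last an adhesion molecule of epithelia. LAMB3 was most like ST14, matriptase (0.996), PKP3, plakophilin-3 of desmosomes (0.996), and ILDR1, a protein of tricellular junctions (0.994). ITGB4 was most like NBEAL2 (0.975), TRPV4 (0.967) and AFDN, afadin of adherens junctions (0.962), and ITGA6 most like UBE3C (0.955), TM9SF2 (0.955) and WDR72 (0.947). The patterns of the linkers were of another kind: DST was nearest to MACF1, the plakin most related to it (0.978), NAV1 (0.974) and IGF1R (0.966), and PLEC to WDFY3 (0.962), NDST1 (0.956) and AGO1 (0.955). CD151 was nearest to RRAGA (0.979), COX5B (0.965) and EMD (0.958), and ran against ITGB4 (r = -0.730) and LAMA3 (r = -0.611). It also ran against PLEC (r = -0.642), LAMB3 (r = -0.612) and DST (r = -0.574), and less against ITGA6 (r = -0.223). ITGA6 and ITGB4 had an r of 0.778 with each other, below that of either laminin chain with ITGB4 (0.903 for both).

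Promoter windows from RefSeq (GRCm38.p6) were given for 4 of the 8 members, LAMB3, COL17A1, CD151 and DST, in 7 windows, and were searched over the 250 bases before each start. On both strands, the AP-1 motif TGANTCA had no match in any of the 7, where 6.75% of all 32851 windows hold one. The E-box CACCTG, read by ZEB and SNAI repressors in epithelial promoters, is in 17.2% of all windows and was in 1 of 2 windows each of LAMB3, DST and CD151. The GRHL motif AACNNGTT, read by grainyhead-like factors of epithelia, is in 3.64% of windows and was in 1 window of CD151. A match is a run of letters and not evidence of binding.

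The upstream sequences of a member that rose, a member that fell or did not pass, and a member near 0 are shown so that these can be compared letter by letter, leaving out bases annotated as exon. Capitals mark the motif matches, CACCTG and then the GRHL match, found in CD151 alone of the 3 stretches shown. The other LAMB3 window, not shown, holds CACCTG from 6 bases before its start. The other CD151 window, not shown, holds none of the motifs. The sequence of LAMB3 (chr1:193301744-193301992, plus strand) lies within an intron of a longer annotated transcript, that of CD151 is chr7:141467112-141467361 on the plus strand, and that of COL17A1 is chr19:47692095-47692292 on the minus strand, all written 5′ to 3′ along the gene.
LAMB3: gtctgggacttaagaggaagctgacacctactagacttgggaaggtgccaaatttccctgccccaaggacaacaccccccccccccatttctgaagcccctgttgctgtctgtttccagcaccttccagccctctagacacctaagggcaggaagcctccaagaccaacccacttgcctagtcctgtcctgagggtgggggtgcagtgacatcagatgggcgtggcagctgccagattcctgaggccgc
CD151: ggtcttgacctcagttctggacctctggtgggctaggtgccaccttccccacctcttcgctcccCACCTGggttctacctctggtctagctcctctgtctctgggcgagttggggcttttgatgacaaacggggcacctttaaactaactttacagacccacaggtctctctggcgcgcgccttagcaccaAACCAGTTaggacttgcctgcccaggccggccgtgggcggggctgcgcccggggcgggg
COL17A1: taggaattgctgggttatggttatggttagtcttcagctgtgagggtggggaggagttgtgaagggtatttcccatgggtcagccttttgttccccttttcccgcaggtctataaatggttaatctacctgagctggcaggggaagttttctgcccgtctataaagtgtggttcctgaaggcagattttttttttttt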

How the data were processed

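RNA was sequenced from 15 libraries as poly(A) mRNA with single-end reads. The authors deposited a gene table of FPKM, aligned to mm10 per the submitters' processing notes; the aligner, the counter and the annotation are not given in the sources used here. Of 24917 entries, 26 with date-like names were left out. A second deposited table holds log2(FPKM + 1) of 1000 genes and equals the first for the 999 matched, so it was not analysed separately. FPKM was divided by median-ratio factors taken over the 9872 genes that reached 1 FPKM in all libraries, then taken as log2(scaled FPKM + 1). Genes with at least 1 scaled FPKM in at least 3 libraries of a comparison were tested in limma 3.58.1 (R 4.3.3) with an intensity trend, in the groups compared only, with Benjamini-Hochberg adjustment over all genes tested. The fits were tested on simulated data. Ratios were tested with exact permutation tests in scipy 1.17.1, chosen after seeing the data. No read totals are given, so no counting intervals were made. The members and the gene lists were chosen with earlier results of these data known. Genes named were the members, CD276, from each list at most the 2 largest and 2 smallest changes that passed in sorted cells with a mean of at least 1, the genes called in bulk where 5 or fewer, and the 3 genes most like each member. Alternatives were the FPKM as deposited, quantile normalization, a pseudocount of 0.1, other filters, a replicate block, all groups in one fit and leaving out each library; leaving out libraries over 50% MIR6236 was added after seeing the data. Replicate numbers were taken to pair libraries only where all 3 same-number pairs deviated together with r above 0.1, which held for sorted sh-B7-H3 (1) against (2). A related gene and a motif are not reported here.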

Additional observations from a re-analysis of the deposited data

Results flagged for a closer look

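PLEC in sorted sh-B7-H3 (1) replicate 1, at 10.9 scaled FPKM, lay apart from the other 5 sorted libraries labelled sh-B7-H3 (16.1 to 18.2), with a gap of 0.756 of the whole range on the log2 scale. It was the only one of 23 genes checked in this way, and chance alone gives about 1 such gap in 20 groups. The 2 shRNAs gave different levels for 3 genes when set against each other in sorted cells: the log2 difference of sh-B7-H3 (1) from sh-B7-H3 (2) was -0.65 for ITGB4, -1.16 for CD276 and -0.89 for FERMT1 by limma.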

How the results depend on the processing

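LAMA3 and LAMB3 kept their direction and their call under all alternatives in which they were tested, in sorted cells (both shRNAs; log2 fold change 2.46 to 3.31 and 2.67 to 3.51) and in bulk tumors (2.58 to 3.39 and 1.99 to 2.70); LAMA3 could not be tested where every library had to reach 1 scaled FPKM. ITGB4 kept its call in both as well. ITGA6 kept its call in sorted cells in 15 of 16 alternatives and in bulk in 7 of 14, and CD151 in bulk in 8 of 14. Of 806 alternative values for the members, 720 kept direction and call, 36 lost and 20 gained a call, and 30 changed sign; for the other named genes of the lists these were 382, 29, 0 and 1 of 412. No value that changed sign passed the test in either setting.

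The number of members that passed, with the cause of each move not tested unless given, was 2 for sorted sh-B7-H3 (1) against sh-NC and became 1 with the filter in every library, which removes LAMA3, and 4 with all groups in one fit. For sh-B7-H3 (1) against sh-B7-H3 (2) it went from 1 to 2 with quantile normalization and to 0 with all groups in one fit. In bulk it went from 5 to 3 on FPKM as deposited, and for sh-NC bulk against sorted from 0 to 2 with all groups in one fit. Leaving out each library gave 3 to 5 members in sorted cells with both shRNAs, 2 to 5 for sh-B7-H3 (1), 4 to 5 for sh-B7-H3 (2), 0 to 2 between the shRNAs, 3 to 5 in bulk, 0 to 2 and 2 to 4 between materials in sh-NC and sh-B7-H3 (1), and 0 for the interaction.

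Of 30 same-number pairs of deviations over 12194 genes, 7 had a correlation above 0.1 (range -0.463 to 0.443). The sorted libraries of the 2 B7-H3 shRNAs were the only pair of groups with all 3 above 0.1, and elsewhere the libraries share only a number. With the replicate number as a block, 5 members passed between the shRNAs and 3 in bulk. Over all genes the block gave 915 calls instead of 1497 for sh-B7-H3 (1), 1395 instead of 2150 for sh-B7-H3 (2), 1864 instead of 382 between the shRNAs, 1413 instead of 2520 in bulk and 24 instead of 56 for the interaction.

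On FPKM as deposited, the values that changed sign were PLEC 0.13 with both shRNAs, DST 0.092 for sh-B7-H3 (2), ITGB4 -0.0077 for sh-NC and LAMA3 -0.19 for sh-B7-H3 (1) between materials, and ITGA6 0.15 for the interaction. Without the MIR6236-rich libraries they were DST -0.075, PLEC -0.030 and CD276 0.083 in bulk and LAMA3 0.17 for sh-NC between materials, and with quantile normalization SPARC 0.054 in bulk. Leaving out each library moved DST from -0.61 to 0.0087 and PLEC from -0.37 to 0.31 with both shRNAs, PLEC from -0.51 to 0.18 for sh-B7-H3 (1), and DST from -0.38 to 0.24, PLEC from -0.24 to 0.45 and CD276 from -0.071 to 0.40 for sh-B7-H3 (2). It moved CD276 from -0.16 to 0.052 in bulk. Between materials in sh-NC it moved LAMA3 from -0.49 to 0.0085, ITGB4 from -0.10 to 0.53, DST from -0.021 to 0.60 and PLEC from -0.0056 to 0.68, and in sh-B7-H3 (1) LAMA3 from -0.14 to 0.30. For the interaction ITGA6 ran from -0.11 to 0.11 and ITGB4 from -0.40 to 0.23.

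Scaling moved the split of calls over all genes. Higher and lower calls were 1439 and 905 with both shRNAs, 1798 and 284 on FPKM as deposited (median shift 0.20), and 1256 and 1272 with quantile normalization. They were 1008 and 489 against 1186 and 223 as deposited for sh-B7-H3 (1), and 1313 and 837 against 1608 and 325 as deposited and 1131 and 1129 by quantiles for sh-B7-H3 (2). In bulk they were 1515 and 1005 against 675 and 286 as deposited and 1072 and 1235 by quantiles. Between materials they were 1184 and 740 against 520 and 132 and 953 and 1225 in sh-NC, and 2464 and 2000 against 898 and 3035 as deposited in sh-B7-H3 (1). For the interaction they were 30 and 26 against 86 and 42 and 27 and 15. Other settings moved all-gene counts from 382 to 137 between the shRNAs with no filter, from 1924 to 1279 with the filter in every library, to 3082 with all groups in one fit and to 86 without the MIR6236-rich libraries for sh-NC materials, and from 56 to 25 with a pseudocount of 0.1, 13 with the filter in every library, 36 with all groups in one fit and 8 without the MIR6236-rich libraries for the interaction. Leaving out each library gave 1414 to 2584 calls over all genes with both shRNAs, 722 to 1948 for sh-B7-H3 (1), 962 to 3614 for sh-B7-H3 (2), 35 to 890 between the shRNAs, 546 to 3793 in bulk, 139 to 4436 and 1674 to 3814 between materials in sh-NC and sh-B7-H3 (1), and 12 to 72 for the interaction. Read depth is not known, which limits COL17A1 most.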
